A study of Mus musculus with 15 samples.

Results

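Immediate early and stress response genes were measured in 5 sorted populations of mouse mesenchymal cells. Immediate early genes are transcribed within minutes of a stimulus from factors already present in the cell, without new protein synthesis. Growth factors, cytokines, mechanical force and cell stress act on them through MAP kinases, serum response factor and cAMP response element binding protein. Many of their products are transcription factors, and others are phosphatases and mRNA decay factors that end the same signals. They are also known to be induced while solid tissue is broken up with enzymes. The list held 34 genes, and a gene was taken from the array where a transcript cluster (1 probe set of the array) was annotated with that gene alone, and of several such clusters the one of highest mean signal was kept. With this rule 33 of the 34 genes had a value, among 18718 genes in all. Fosl1, an AP-1 subunit, had 2 transcript clusters that are shared with another gene in the annotation, and no value is given for it.

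The cells came from C57BL/6 mice aged 2 weeks and were sorted as PDGFRβ-positive, PDGFRβ being a receptor of mesenchymal cells. PDPN (podoplanin) and BP3, the product of Bst1, divided them further. The thymus gave PDPN+BP3- cells and PDPN- cells, and lymph nodes (inguinal, brachial and axillary) gave PDPN+BP3-, PDPN+BP3+ and PDPN- cells. Both PDPN- populations were also gated on Ly51, the product of Enpep. Each population was measured on 3 Affymetrix Mouse Gene 1.1 ST arrays from 3 individual experiments (n = 3, 15 arrays). An experiment pooled the organs of 3 mice for the thymus and of 10 to 11 mice for the lymph nodes. Tissue and pool size therefore cannot be told apart. All values below are signals on a log2 scale, errors of means are SDs over 3 arrays, and errors of differences are SEs of the model. Adjusted p-values come from limma with Benjamini-Hochberg adjustment over all 18718 genes, and a call is an adjusted p under 0.05.

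All 15 arrays came from suspensions prepared with the same enzymes, liberase TM at 0.32 Wunsch U per mL and DNase I at 50 Kunitz U per mL. An undigested sample was not analysed here, and the part of the digestion in any level or difference below was not tested. The sort antigens followed the labels: Pdpn signal was 9.11 ± 0.09 and 3.01 ± 0.24 in the PDPN+BP3- and PDPN- cells of the thymus, and Bst1 signal was 8.74 ± 0.19 in the lymph node PDPN+BP3+ cells against 3.30 ± 0.44 in the PDPN+BP3- cells there. Replicate 1 of the thymus PDPN+BP3- cells stood apart, with a median signal of 3.65 over all genes against 3.88 to 3.99 on the other 14 arrays. It had the lowest of the 3 values for 26 of the 33 members and for 61.1% of all genes. The member counts of the thymus comparison, of the tissue comparison of PDPN+BP3- cells and of the interaction are therefore also given without it.

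Markers of other cell types were present in unequal amounts. The mean signal of 10 T lineage markers was 3.31 to 4.67 on the thymus PDPN+BP3- arrays, 4.75 to 5.28 on the thymus PDPN- arrays and 2.55 to 2.74 on the lymph node arrays. In both thymus populations 8 of the 10 were above the median of the whole table (3.8), and in the lymph node populations 0 of 10 were. The 10 epithelium markers averaged 3.33 to 4.09 and 4.06 to 4.46 on the thymus PDPN+BP3- and PDPN- arrays and 2.75 to 2.89 on the lymph node arrays. The 12 endothelium markers averaged 4.52 to 4.91 on the lymph node PDPN+BP3- arrays, with 9 of 12 above the table median, and 3.77 to 4.30 on the other arrays. The 10 myeloid markers averaged 3.35 to 3.42 on the lymph node PDPN+BP3+ arrays, with 3 of 10 above the table median, and 2.53 to 3.33 on the other arrays. Of 5 B cell markers none was above the table median in any population. The part of these cells in the member differences was not tested.

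Across the 5 populations, 30 of the 33 members differed (limma F test), a share of 90.9%, where 45.3% of all genes and 69.0% of the genes above the table median in at least 1 population did. Jun (adjusted p = 0.0877), Jund (adjusted p = 0.499) and Klf6 (adjusted p = 0.438) did not pass. The range between the highest and the lowest population mean had a median of 1.12 over the members, from 0.25 for Klf6 to 3.50 for Nr4a2. It was 0.48 over all genes and 0.76 over those above the table median in at least 1 population. The median SD within a population was 0.22 for the members, 0.18 for all genes and 0.21 for those above the table median in at least 1 population. In these bulk samples, fewer expressing cells and less RNA per cell cannot be told apart.

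The lymph node PDPN- cells had the highest mean for 18 of the 33 members, and the lymph node PDPN+BP3- cells for 9. The thymus PDPN+BP3- cells were highest for Dusp6, Klf2 and Klf4, the lymph node PDPN+BP3+ cells for Ier3, Klf6 and Myc, and the thymus PDPN- cells for 0. At the other end, the thymus PDPN+BP3- cells were lowest for 19 members and the lymph node PDPN+BP3+ cells for 9. Among all genes the thymus PDPN+BP3- cells were lowest for 29.6% and the lymph node PDPN- cells highest for 19.7%. Among genes above the table median in at least 1 population, the lowest mean was in the thymus PDPN+BP3- cells for 41.4% and in the lymph node PDPN+BP3+ cells for 14.8%. The highest mean of those genes was in the lymph node PDPN- cells for 16.9% and in the lymph node PDPN+BP3- cells for 17.6%.

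**Figure D1:**
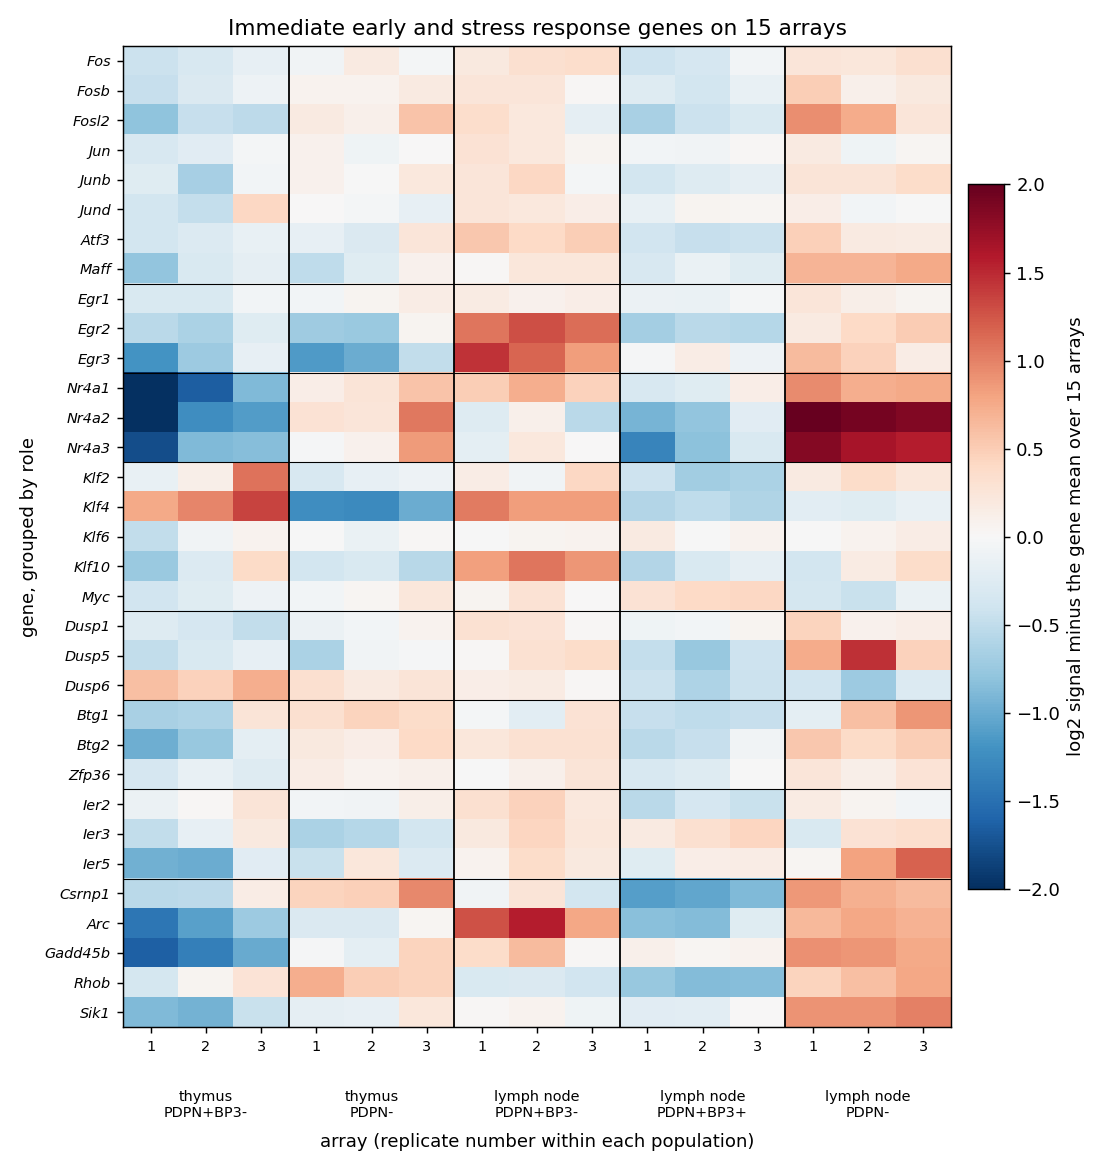
Each row is 1 of the 33 members, grouped by role, and each column 1 of the 15 arrays. Colour gives the log2 signal minus the gene's mean over the 15 arrays, cut at -2 and 2. The left columns (thymus PDPN+BP3-) are mostly blue and the right columns (lymph node PDPN-) mostly red, with Klf4 and Dusp6 as rows that run the other way.

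The same order showed in each array's median over the members, taken as deviation from the gene means. It was -0.50, -0.33 and -0.15 on the thymus PDPN+BP3- arrays and -0.39, -0.34 and -0.17 on the lymph node PDPN+BP3+ arrays. On the thymus PDPN- arrays it was -0.05, -0.03 and 0.12, on the lymph node PDPN+BP3- arrays 0.19, 0.28 and 0.19, and on the lymph node PDPN- arrays 0.25, 0.37 and 0.33. Every array of the first 2 populations lay below every other array, and the arrays of both other lymph node populations lay above all thymus arrays. Over all genes the median was -0.14 on replicate 1 of the thymus PDPN+BP3- cells and -0.02 to 0.03 on the other arrays. Replicate 3 gave the highest of the 3 values for 30 of 33 members in the thymus PDPN+BP3- cells, where it did so for 42.7% of all genes. It also did so for 24 members in the thymus PDPN- cells (30.0% of all genes) and 20 in the lymph node PDPN+BP3+ cells (31.8% of all genes). In the lymph node PDPN- cells replicate 3 was highest for 15 members (29.4% of all genes). In the lymph node PDPN+BP3- cells it was highest for 6 (36.7% of all genes) and lowest for 17 (34.4%).

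**Figure D2:**
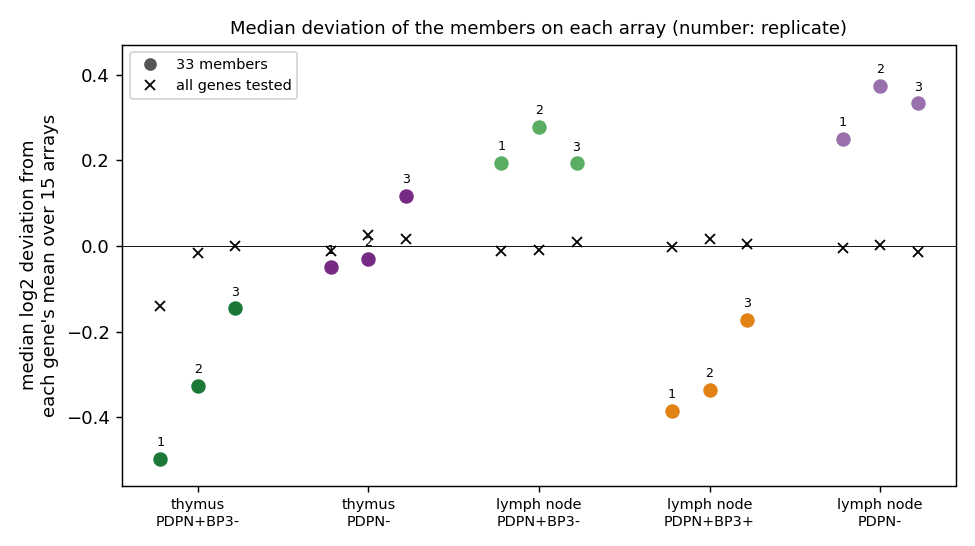
The vertical axis is the median, over genes, of the log2 deviation from each gene's mean over 15 arrays, and the horizontal axis lists the 5 populations. Coloured points are the medians of the 33 members on each array, numbered by replicate, and crosses those of all 18718 genes. The members spread from -0.50 to 0.37, while 14 of the 15 crosses lie within -0.02 and 0.03.

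The NR4A genes encode orphan nuclear receptors that act without a known activating ligand and are induced by cAMP and calcium signals in many tissues. They had the widest ranges between populations: the range of population means was 3.50 for Nr4a2, 2.86 for Nr4a3 and 2.36 for Nr4a1. The 3 genes were among the 15 members lower in PDPN+BP3- than PDPN- cells of the thymus, while in the lymph node Nr4a1 was not called. They were picked for a look at their promoters after these values were seen. The 250 bases before the transcript start that RefSeq's promoter table lists are shown for Nr4a1 and Nr4a2, with those of Fos for comparison. The part of any motif in the differences was not tested. Sequences are from RefSeq on GRCm38.p6, written 5′ to 3′ in the direction of the gene, and capitals mark the core of the cAMP response element, TGACG, or CGTCA where it lies on the other strand. The windows are chr15:101266596-101266845 on the plus strand for Nr4a1, chr2:57124004-57124253 on the minus strand for Nr4a2 and chr12:85473640-85473889 on the plus strand for Fos. For Nr4a1 the listed start lies 12944 bases inside the gene as RefSeq draws it, so it is not the outermost start, and for Nr4a2 and Fos it is the outermost one. The listed start of Nr4a3 lies 227 bases inside its gene, and its window is not shown.
Nr4a1: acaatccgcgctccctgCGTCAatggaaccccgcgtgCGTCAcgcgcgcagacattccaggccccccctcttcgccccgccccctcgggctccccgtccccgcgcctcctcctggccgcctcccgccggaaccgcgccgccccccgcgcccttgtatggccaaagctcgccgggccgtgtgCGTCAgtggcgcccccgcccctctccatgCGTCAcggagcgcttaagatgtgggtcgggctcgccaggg
Nr4a2: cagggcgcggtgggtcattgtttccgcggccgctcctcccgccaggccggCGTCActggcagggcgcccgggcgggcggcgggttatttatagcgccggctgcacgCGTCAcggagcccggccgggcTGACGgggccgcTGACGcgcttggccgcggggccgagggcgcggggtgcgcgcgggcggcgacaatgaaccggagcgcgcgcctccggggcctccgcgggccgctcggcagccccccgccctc
Fos: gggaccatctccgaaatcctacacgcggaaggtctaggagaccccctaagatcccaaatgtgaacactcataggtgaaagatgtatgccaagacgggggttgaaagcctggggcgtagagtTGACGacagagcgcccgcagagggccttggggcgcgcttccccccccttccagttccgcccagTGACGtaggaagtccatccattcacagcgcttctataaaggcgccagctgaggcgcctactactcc
Each NR4A window held 4 cores and that of Fos held 2. How many of all windows hold as many was not computed, so these counts have no background to be judged by. In Nr4a1 the cores began 233, 213, 69 and 40 bases before the listed start, in Nr4a2 200, 144, 123 and 111, in Nr4a3 231, 213, 205 and 147, and in Fos 129 and 66. In windows from 250 bases before to 50 after the start, searched on both strands, the TGACG core was found for 16 of the 26 members with a RefSeq window and for 23.0% of 27025 genes. The full element TGACGTCA, which contains the core on both strands, was found for 3 members (Dusp1, Btg2 and Maff) and 2.03% of genes. The CArG box of serum response factor was found for Egr2, Dusp5 and Zfp36, 3 of 26 members, and for 1.81% of genes. Sequence outside these windows was not searched, so a member without a CArG box here may hold one farther away. An EGR motif, GCGNGGGCG, was found for 10 of 26 members and 6.27% of genes, an AP-1 motif, TGANTCA, for 1 member (Csrnp1) and 8.97%, and an NF-kB motif for 7 members and 9.55%. The members' windows were richer in G and C, with a median GC content of 63.7% and 24 CG dinucleotides against 52.7% and 7 over all windows, and the part of this composition in the motif shares was not tested.

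Nr4a1 signal was 7.43, 7.89 and 8.66 in the thymus PDPN+BP3- cells, 9.68, 9.79 and 10.11 in the thymus PDPN- cells, 10.03, 10.27 and 10.00 in the lymph node PDPN+BP3- cells, 9.22, 9.30 and 9.67 in the lymph node PDPN+BP3+ cells and 10.49, 10.27 and 10.29 in the lymph node PDPN- cells. The 3 thymus PDPN+BP3- arrays lay below the 12 others without overlap. Within the thymus the PDPN+BP3- minus PDPN- difference of Nr4a1 was -1.87 ± 0.23 (adjusted p = 8.24e-06). In the lymph node it was -0.25 ± 0.23 (adjusted p = 0.528), with overlapping arrays.

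Nr4a2 signal was 3.19, 4.33 and 4.45 in the thymus PDPN+BP3- cells, 5.86, 5.82 and 6.63 in the thymus PDPN- cells, 5.32, 5.68 and 5.03 in the lymph node PDPN+BP3- cells, 4.65, 4.79 and 5.35 in the lymph node PDPN+BP3+ cells and 7.57, 7.48 and 7.43 in the lymph node PDPN- cells. The lymph node PDPN- arrays were above all others, and replicate 1 of the thymus PDPN+BP3- cells was under the table median of 3.8. The PDPN+BP3- minus PDPN- difference of Nr4a2 was -2.11 ± 0.30 in the thymus (adjusted p = 3.61e-05) and -2.15 ± 0.30 in the lymph node (adjusted p = 3.54e-05). Nr4a3 signal ran from 4.35 to 5.27 in the thymus PDPN+BP3- cells, 6.10 to 6.97 in the thymus PDPN- cells, 5.93 to 6.33 in the lymph node PDPN+BP3- cells, 4.80 to 5.82 in the lymph node PDPN+BP3+ cells and from 7.70 to 7.96 in the lymph node PDPN- cells. For Nr4a3 too the lymph node PDPN- arrays were above all others, and the same difference was -1.47 ± 0.28 in the thymus (adjusted p = 0.000652) and -1.68 ± 0.28 in the lymph node (adjusted p = 0.000225). Against the lymph node PDPN- cells, the PDPN+BP3+ cells were lower in Nr4a2 by a difference of -2.56 ± 0.30 (adjusted p = 4.74e-06) and in Nr4a3 by -2.50 ± 0.28 (adjusted p = 2.94e-06).

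**Figure D3:**
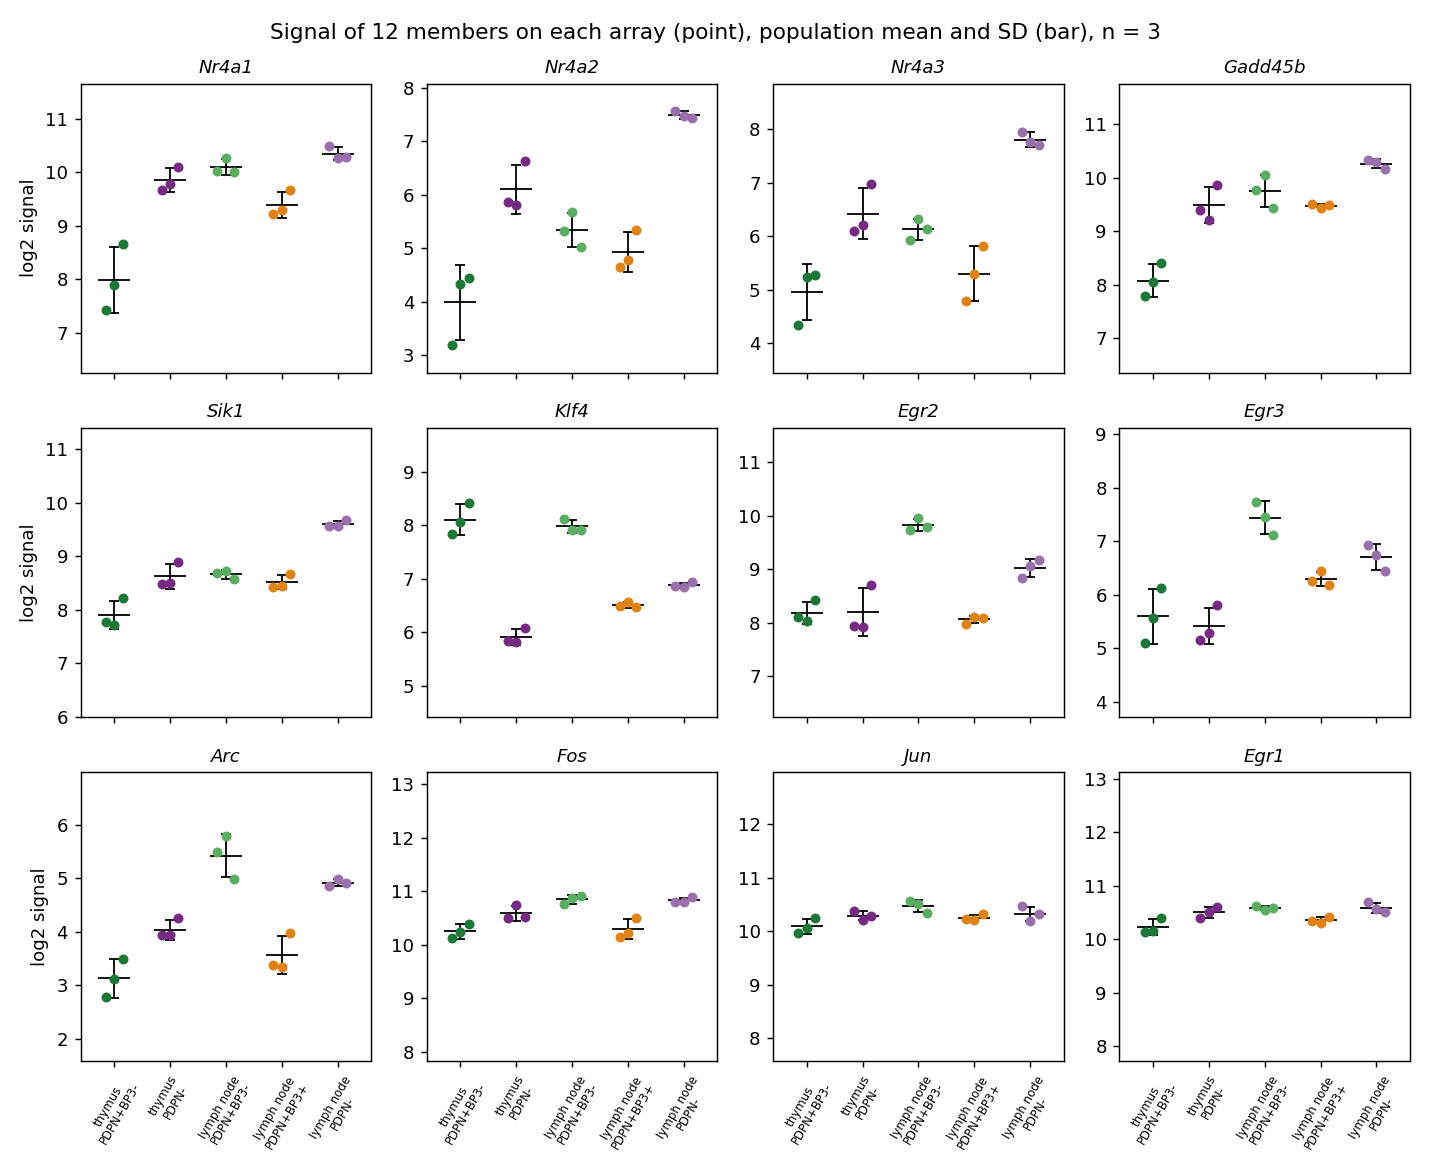
Each panel shows 1 of 12 members, chosen after their values were seen to show wide and narrow ranges and all panels span an equal number of log2 units. Points are arrays, horizontal bars the population means and error bars the SDs (n = 3). Nr4a1, Nr4a2 and Gadd45b lie lowest in the thymus PDPN+BP3- cells, and Klf4 is highest in both PDPN+BP3- populations. The population means of Fos, Jun and Egr1 span only 0.60, 0.38 and 0.36, though Fos was called in 4 pairwise comparisons. Signals of Fos, Jun and Egr1 ran from 9.96 to 10.92, near the top of the table. Whether the array narrows differences there was not tested.

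AP-1 is a dimer of FOS and JUN family proteins, and Atf3 and Maff encode related leucine zipper factors that mostly repress. Fos signal was 10.13, 10.24 and 10.40 in the thymus PDPN+BP3- cells, 10.50, 10.75 and 10.53 in the thymus PDPN- cells, 10.76, 10.88 and 10.92 in the lymph node PDPN+BP3- cells, 10.15, 10.23 and 10.51 in the lymph node PDPN+BP3+ cells and 10.81, 10.80 and 10.89 in the lymph node PDPN- cells. The whole spread of Fos was under 1 log2 unit, with the thymus PDPN+BP3- and the lymph node PDPN+BP3+ arrays overlapping at the low end. Fos, Jun and Egr1 have signals near the top of the table, and whether the array narrows differences there was not tested. Fos was lower in the lymph node PDPN+BP3+ cells than in the PDPN- cells (-0.54 ± 0.12, adjusted p = 0.00226) and the PDPN+BP3- cells (-0.56 ± 0.12, adjusted p = 0.0027). Its thymus difference of -0.34 ± 0.12 (adjusted p = 0.042) was lost under 13 of 23 alternatives, with an adjusted p of 0.0149 to 0.175 over them.

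Fosb and Junb, further AP-1 subunits, gave calls in the same 4 comparisons as Fos. Fosl2, another FOS family gene, had a wider range: its lymph node PDPN- arrays (7.61 to 8.29) and PDPN+BP3+ arrays (6.72 to 7.06) did not overlap, and the difference was -1.10 ± 0.19 (adjusted p = 0.000262). Atf3 was also lower in the lymph node PDPN+BP3+ cells, at 9.89 to 9.97, than in the PDPN+BP3- cells, at 10.76 to 10.90 (-0.91 ± 0.13, adjusted p = 9.7e-05). Maff, a small MAF factor, had the lymph node PDPN- cells at the top, at 7.45 to 7.53 against 6.26 to 6.86 in the thymus PDPN- cells (0.93 ± 0.16, adjusted p = 0.000986). Jun was called only in the lymph node against thymus comparison of PDPN+BP3- cells (0.38 ± 0.11, adjusted p = 0.0234, 0.144 at most over the alternatives). Jund gave no call in any comparison, and its thymus PDPN+BP3- arrays spread from 7.22 to 8.11.

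EGR genes encode zinc finger factors whose induction runs largely through serum response factor. Egr1 signal stayed between 10.14 and 10.69 on all 15 arrays. Its 1 pairwise call was higher in lymph node than thymus PDPN+BP3- cells (0.36 ± 0.10, adjusted p = 0.0234). Egr2 signal was 8.11, 8.03 and 8.42 in the thymus PDPN+BP3- cells, 7.94, 7.92 and 8.71 in the thymus PDPN- cells, 9.73, 9.95 and 9.78 in the lymph node PDPN+BP3- cells, 7.98, 8.11 and 8.08 in the lymph node PDPN+BP3+ cells and 8.84, 9.06 and 9.17 in the lymph node PDPN- cells. The lymph node PDPN+BP3- arrays were above all others in Egr2, the lymph node PDPN- arrays came next, and the other 9 arrays overlapped. Egr2 was higher in lymph node than in thymus PDPN+BP3- cells by 1.63 ± 0.18 (adjusted p = 5.87e-06) and lower in lymph node PDPN+BP3+ than PDPN+BP3- cells (-1.76 ± 0.18, adjusted p = 1.68e-06). Egr3 signal was 5.10 to 6.13 in the thymus PDPN+BP3- cells, 5.15 to 5.80 in the thymus PDPN- cells, 7.12 to 7.73 in the lymph node PDPN+BP3- cells, 6.19 to 6.44 in the lymph node PDPN+BP3+ cells and from 6.44 to 6.92 in the lymph node PDPN- cells. All 9 lymph node arrays were above the 6 thymus arrays for Egr3, and its lymph node minus thymus difference was 1.84 ± 0.23 in PDPN+BP3- cells (adjusted p = 2.98e-05) and 1.29 ± 0.23 in PDPN- cells (adjusted p = 0.00145).

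Krüppel-like factors and Myc act on growth and differentiation. Klf4, which is known for growth arrest and for control of smooth muscle genes, was at 7.84, 8.05 and 8.42 in the thymus PDPN+BP3- cells, 5.84, 5.81 and 6.08 in the thymus PDPN- cells, 8.11, 7.91 and 7.91 in the lymph node PDPN+BP3- cells, 6.49, 6.57 and 6.47 in the lymph node PDPN+BP3+ cells and 6.87, 6.84 and 6.93 in the lymph node PDPN- cells. Both PDPN+BP3- populations overlapped at the top, and the other 3 populations were separate from them and from each other. The PDPN+BP3- cells exceeded the PDPN- cells in Klf4 by 2.19 ± 0.13 in the thymus (adjusted p = 1.45e-09) and by 1.10 ± 0.13 in the lymph node (adjusted p = 8.63e-06). Myc, a driver of growth, was at 8.87 to 9.15 in the thymus PDPN+BP3- cells, 9.20 to 9.47 in the thymus PDPN- cells, 9.25 to 9.53 in the lymph node PDPN+BP3- cells, 9.54 to 9.66 in the lymph node PDPN+BP3+ cells and from 8.81 to 9.12 in the lymph node PDPN- cells. It was the only member called higher in the lymph node PDPN+BP3+ than in the PDPN- cells (0.67 ± 0.12, adjusted p = 0.000438). Klf10, a gene induced by TGF-β, was highest in the lymph node PDPN+BP3- cells, at 8.02 to 8.27 against 6.62 to 7.03 in the PDPN+BP3+ cells (-1.28 ± 0.23 for PDPN+BP3+ minus PDPN+BP3-, adjusted p = 0.000728). Klf2, known as a flow-responsive gene of endothelium, ran from 7.20 to 8.44 over the thymus PDPN+BP3- arrays alone. It was lower in lymph node PDPN+BP3+ than PDPN- cells (-0.85 ± 0.23, adjusted p = 0.0102) and PDPN+BP3- cells (-0.75 ± 0.23, adjusted p = 0.0327). Klf6 stayed between 8.62 and 9.30 everywhere.

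The MAP kinase phosphatases differed from one another. Dusp1, a nuclear phosphatase of p38 and JNK, was higher in lymph node than in thymus PDPN+BP3- cells (0.56 ± 0.12, adjusted p = 0.00334). Dusp5, a nuclear phosphatase of ERK, was lower in lymph node PDPN+BP3+ than PDPN- cells (-1.44 ± 0.22, adjusted p = 8.67e-05), with the PDPN- arrays at 5.06 to 6.06 and the PDPN+BP3+ arrays at 3.84 to 4.18. Dusp6, the cytoplasmic ERK phosphatase, was at 8.60, 8.46 and 8.72 in the thymus PDPN+BP3- cells, 8.32, 8.18 and 8.26 in the thymus PDPN- cells, 8.13, 8.17 and 8.02 in the lymph node PDPN+BP3- cells, 7.57, 7.38 and 7.57 in the lymph node PDPN+BP3+ cells and 7.61, 7.27 and 7.73 in the lymph node PDPN- cells. Every thymus array was above every lymph node array for Dusp6, and its lymph node minus thymus difference was -0.49 ± 0.12 in PDPN+BP3- cells (adjusted p = 0.011) and -0.72 ± 0.12 in PDPN- cells (adjusted p = 0.000915). Its PDPN+BP3- minus PDPN- difference in the thymus, 0.34 ± 0.12 (adjusted p = 0.0489), was lost under 15 of 23 alternatives, with an adjusted p of 0.00479 to 0.153 over them.

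Among genes that act on mRNA decay and growth arrest, Btg2, an antiproliferative partner of the mRNA deadenylase complex, was at 8.92 to 9.70 in the thymus PDPN+BP3- cells against 10.03 to 10.29 in the PDPN- cells (-0.89 ± 0.17, adjusted p = 0.000693). In the lymph node PDPN+BP3+ cells Btg2 was at 9.36 to 9.82, below the PDPN- cells at 10.28 to 10.44 (-0.83 ± 0.17, adjusted p = 0.00122). Zfp36, which directs decay of AU-rich cytokine mRNAs, and Btg1, a relative of Btg2, were lower in the same comparisons with smaller or more variable differences. Their thymus calls were lost under 8 and 13 of 23 alternatives, with an adjusted p of up to 0.185 and 0.17. Of the IER genes, Ier2 was lower in the lymph node PDPN+BP3+ cells, at 8.79 to 8.99, than in the PDPN+BP3- cells, at 9.55 to 9.80 (-0.78 ± 0.12, adjusted p = 0.000135). Ier5, a gene linked to the heat shock response, was higher in lymph node than thymus PDPN+BP3- cells (0.93 ± 0.26, adjusted p = 0.0201, 0.0825 at most over the alternatives), and Ier3, a gene linked to cell survival, in lymph node than thymus PDPN- cells (0.63 ± 0.18, adjusted p = 0.0357, 0.15 at most).

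All 5 signalling and stress effectors were lower in PDPN+BP3- than PDPN- cells of the thymus and in PDPN+BP3+ than PDPN- cells of the lymph node, where 18.2% and 11.2% of all genes were lower, and 1 of the 5, Arc, has low signals. Gadd45b, an activator of the p38 pathway, was at 7.78, 8.04 and 8.40 in the thymus PDPN+BP3- cells, 9.39, 9.21 and 9.86 in the thymus PDPN- cells, 9.77, 10.04 and 9.43 in the lymph node PDPN+BP3- cells, 9.51, 9.44 and 9.48 in the lymph node PDPN+BP3+ cells and 10.33, 10.29 and 10.16 in the lymph node PDPN- cells. Only the thymus PDPN+BP3- arrays lay under 9, and the thymus difference of Gadd45b was -1.41 ± 0.18 (adjusted p = 1.54e-05). Sik1, a kinase that holds CREB coactivators in check, was at 7.72 to 8.21 in the thymus PDPN+BP3- cells, 8.48 to 8.89 in the thymus PDPN- cells, 8.57 to 8.73 in the lymph node PDPN+BP3- cells, 8.43 to 8.66 in the lymph node PDPN+BP3+ cells and from 9.56 to 9.67 in the lymph node PDPN- cells. The lymph node PDPN- arrays stood above all others for Sik1, by a difference of 0.97 ± 0.14 from the thymus PDPN- cells (adjusted p = 0.000196). Rhob, a small GTPase of endosomes, was highest in both PDPN- populations, and its lymph node PDPN+BP3+ minus PDPN- difference was -1.43 ± 0.14 (adjusted p = 8.29e-07). Csrnp1, a nuclear factor induced by AXIN1, was lower in the lymph node PDPN+BP3+ cells (6.73 to 6.94) than in the PDPN- cells (8.46 to 8.69), with a difference of -1.74 ± 0.20 (adjusted p = 3.39e-06).

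Arc, a cytoskeletal gene best known in neurons, was the only member with a population mean below the table median. Its signal was 2.77, 3.12 and 3.49 in the thymus PDPN+BP3- cells, 3.93, 3.93 and 4.25 in the thymus PDPN- cells, 5.49, 5.78 and 4.99 in the lymph node PDPN+BP3- cells, 3.37, 3.34 and 3.97 in the lymph node PDPN+BP3+ cells and 4.86, 4.98 and 4.90 in the lymph node PDPN- cells. The lymph node PDPN+BP3- and PDPN- arrays were above the rest. Between PDPN+BP3- cells of the lymph node and of the thymus the difference of Arc was 2.29 ± 0.21 (adjusted p = 1.03e-06), and a value this near the low end of the table need not stand above background.

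In the thymus, 17 of the 33 members (51.5%) differed between PDPN+BP3- and PDPN- cells, 2 higher (Klf4 and, with the call lost under most alternatives as given above, Dusp6) and 15 lower, where 28.5% of all genes were called, 10.3% higher and 18.2% lower. The share among genes above the table median in at least 1 population was 44.6%. The median difference was -0.33 over the members and -0.05 over all genes, and for 20 members the arrays did not overlap, as for 38.3% of all genes. With cyclic loess or quantile normalization the split of the members was 4 higher and 10 lower, and with cyclic loess that of all genes was 2698 and 2211 against 1922 and 3415 as deposited. It was 3 higher and 11 lower without replicate 1 of the PDPN+BP3- cells. The count was 11 when only the 6 arrays compared were fitted, and also without replicate 1 or without replicate 3 of the PDPN- cells. T lineage markers, at 3.31 to 4.67 and 4.75 to 5.28 on the arrays of these populations, were also lower in PDPN+BP3- cells, and their part was not tested.

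In the lymph node, 13 members (39.4%) differed between PDPN+BP3- and PDPN- cells, where 23.1% of all genes and 36.8% of those above the table median did. Of these, 6 were higher (Egr2, Egr3, Klf4, Klf10, Myc and Dusp6) and 7 lower (Nr4a2, Nr4a3, Maff, Dusp5, Csrnp1, Rhob and Sik1), against 13.4% and 9.79% of all genes. The median difference was -0.09 for the members and -0.01 for all genes, and the arrays did not overlap for 17 members and 34.6% of genes. The thymus and lymph node comparisons share no array. Both were taken from the same fit and share its estimate of each gene's spread, so their calls are not fully independent. Nr4a2, Nr4a3, Csrnp1, Rhob and Sik1 were called lower in both and Klf4 and Dusp6 higher in both (for Dusp6 with a thymus call that most alternatives lost), and 0 members were called in opposite directions. The shares of all genes called alike or in opposite directions were not computed.

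The PDPN+BP3+ cells of the lymph node were lower than the PDPN- cells in 22 members and higher in 1, so that 69.7% were called, where 27.3% of all genes were, 16.1% higher and 11.2% lower. Among genes above the table median in at least 1 population 43.0% were called. With arrays centred on their medians, 2697 of all genes were higher and 2941 lower, against 3013 and 2105 as deposited, while 1 member was higher and 24 lower. The median difference was -0.66 over the members and 0 over all genes, and the arrays of 25 members did not overlap, as for 39.0% of all genes. Against the PDPN+BP3- cells, the PDPN+BP3+ cells were lower in 18 members (54.5%) and higher in 0, where 16.2% of all genes were called, 8.49% higher and 7.74% lower. The share was 25.9% among genes above the table median in at least 1 population. The median difference was -0.50 against 0.01 over all genes, and again 25 members did not overlap, as for 32.9% of all genes. Without replicate 2 of the PDPN+BP3+ cells the count of 18 was 10. These comparisons and the lymph node comparison before them share arrays, so their calls are not independent of each other. Endothelium markers averaged 4.52 to 4.91 in the PDPN+BP3- cells and 4.03 to 4.25 in the PDPN+BP3+ cells, and their part was not tested. Against the PDPN- cells, 3 of the 10 myeloid markers were higher and 1 lower in the PDPN+BP3+ cells, and their part was not tested either. Cd14, a coreceptor for bacterial lipopolysaccharide named here after its values were seen, was among the 3 (4.59 ± 0.25, adjusted p = 4.78e-10). The 1 lower was Cd68 (-1.55, adjusted p = 0.000274), and only 3 of the 10 were above the table median in the PDPN+BP3+ cells.

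Between tissues, 21 members were higher and 1 (Dusp6) lower in PDPN+BP3- cells of the lymph node than of the thymus, 66.7% in all, where 17.1% of all genes were called, 11.8% higher and 5.29% lower. The share was 26.8% among genes above the table median in at least 1 population. The median difference was 0.55 over the members and 0.04 over all genes, and the arrays of 24 members did not overlap, as for 29.2% of genes. Without replicate 1 of the thymus cells 14 were higher and 2 lower, and without replicate 2 of the lymph node cells 13 were higher and 1 lower. With cyclic loess the split of all genes was 1332 higher and 1584 lower against 2215 and 990 as deposited, and that of the members 13 higher and 2 lower. In PDPN- cells 11 members were higher and 1 (Dusp6) lower in the lymph node, 36.4% in all, where 9.61% of all genes were called, 4.42% higher and 5.19% lower. Of genes above the table median in at least 1 population, 15.1% were called. The median difference there was 0.35 over the members and -0.01 over all genes, and 18 members did not overlap, as for 24.7% of genes. Both tissue comparisons called 8 members higher, with no all-gene share computed for that overlap. T lineage and epithelium markers, higher in thymus, moved with both of them, in the direction opposite to most members. Endothelium markers moved in the direction of most members in PDPN+BP3- cells, where 6 of 12 were higher and 1 lower in the lymph node, with a median of 0.51. Cdh5, the cadherin of endothelial junctions, also named after its values were seen, was among the 6 (2.52 ± 0.19, adjusted p = 8.32e-08). The 1 lower was Eng (-1.07 ± 0.16, adjusted p = 0.000137). The part of these markers' cells was not tested.

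Whether the PDPN+BP3- minus PDPN- difference itself differed between tissues was tested as an interaction, in which 6 members were called (18.2%), where 12.7% of all genes were, 8.67% higher and 4.05% lower. Among genes above the table median in at least 1 population 20.5% were called, a share above that of the members, and without replicate 1 of the thymus PDPN+BP3- cells 5 members were called, 3 positive and 2 negative. Nr4a1 had a difference more negative in the thymus, with an interaction (lymph node minus thymus) of 1.62 ± 0.32 (adjusted p = 0.00306). Arc differed by 1.42 ± 0.30 (adjusted p = 0.00485), being lower in the thymus PDPN+BP3- cells (-0.91 ± 0.21, adjusted p = 0.00391), with 0.51 ± 0.21 in the lymph node (adjusted p = 0.109). For Klf4 the interaction was -1.10 ± 0.19 (adjusted p = 0.000851), since its excess in PDPN+BP3- cells was larger in the thymus. Myc gave 0.73 ± 0.17 (adjusted p = 0.00903), with a difference of -0.31 ± 0.12 in the thymus (adjusted p = 0.0638) and 0.42 ± 0.12 in the lymph node (adjusted p = 0.0181). Gadd45b gave 0.90 ± 0.26 (adjusted p = 0.0313, 0.0913 at most over the alternatives) and Egr2 0.80 ± 0.25 (adjusted p = 0.0485, 0.155 at most), while Nr4a1, Arc, Klf4 and Myc passed under all 23 alternatives. Of these calls, 5 were positive and 1 negative, and the split was 3 and 2 with cyclic loess and 4 and 2 with quantile normalization. Over all genes it was 862 and 1215 with cyclic loess against 1623 and 758 as deposited. For Nr4a2 the interaction was -0.04 ± 0.42 (adjusted p = 0.973). The median interaction was 0.27 over the members and 0.06 over all genes.

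**Figure D4:**
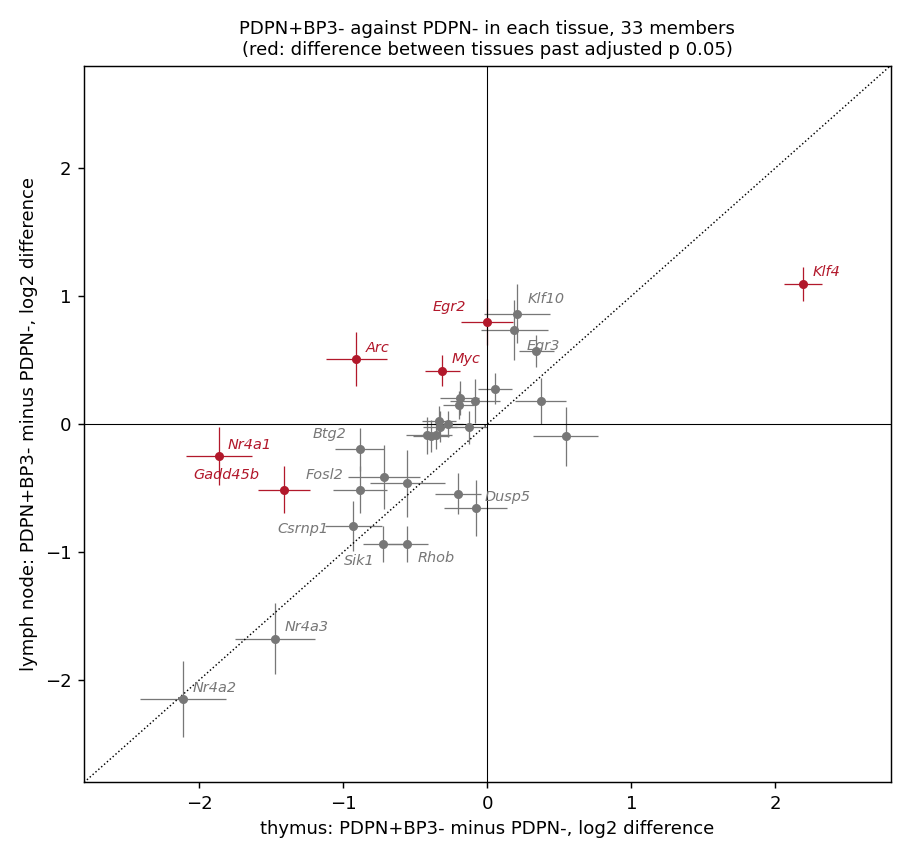
Each point is 1 of the 33 members, with its PDPN+BP3- minus PDPN- log2 difference in the thymus on the horizontal and in the lymph node on the vertical axis, and bars are SEs. The dotted line marks equal differences, and the 6 members in red passed the interaction test. Nr4a2 and Nr4a3 lie at the lower left near the line, Klf4 at the right below it, and Nr4a1, Arc and Gadd45b at the left above it.

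Other genes of the same pathways were read from further lists, whose calls were not followed under the alternatives. Of 44 other rapidly induced genes, 20 were lower and 11 higher in PDPN+BP3- than PDPN- cells of the thymus, with a median difference of -0.37, where 28.5% of all genes were called. Hbegf, an EGF receptor ligand, was lower (-2.97 ± 0.15, adjusted p = 1.74e-10) and Ptgs2, the inducible prostaglandin synthase, higher (3.00 ± 0.21, adjusted p = 8.64e-09). Between the lymph node PDPN+BP3+ and PDPN- cells 18 of the 44 were lower and 9 higher, where 27.3% of all genes were called. Dusp4, a nuclear MAP kinase phosphatase, was lower there (-2.60 ± 0.17, adjusted p = 6.89e-09) and Vegfa, the endothelial growth factor, higher (3.09 ± 0.13, adjusted p = 2.88e-11). Against the PDPN+BP3- cells, Il6, the interleukin-6 gene, was lower in the PDPN+BP3+ cells (-2.98 ± 0.31, adjusted p = 1.94e-06). Between tissues, 22 of the 44 were higher and 1 lower in lymph node PDPN+BP3- cells, and 21 higher and 3 lower in lymph node PDPN- cells, where 17.1% and 9.61% of all genes were called. Of genes above the table median in at least 1 population, 26.8% and 15.1% were called between tissues. For the thymus comparison that share was 44.6%, and for lymph node PDPN+BP3+ against PDPN- cells 43.0%.

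Of 12 heat shock and chaperone genes, 3 (25.0%) were called between tissues in PDPN+BP3- cells and 2 (16.7%) in PDPN- cells, beside the same 17.1% and 9.61% of all genes. These shares are near the 26.8% and 15.1% of genes above the table median in at least 1 population. Within the thymus 5 of the 12 were lower and 2 higher in PDPN+BP3- cells, 58.3% in all against 28.5% of all genes. Of genes above the table median in at least 1 population, 44.6% were called there. Hspb1, a small heat shock protein, was lower in PDPN+BP3- than PDPN- cells in the thymus (-1.12 ± 0.17, adjusted p = 9.52e-05) and the lymph node (-1.60 ± 0.17, adjusted p = 2.29e-06), while Bag3, a cochaperone of HSP70, was higher in both (0.63 ± 0.11, adjusted p = 0.000368, and 1.01 ± 0.11, adjusted p = 3e-06). Of 8 genes for serum response factor, its partners and CREB cofactors, 6 (75.0%) were lower in thymus PDPN+BP3- cells, where 18.2% of all genes were lower. Among the 6 were Crtc3, a CREB coactivator (-1.11 ± 0.14, adjusted p = 9.24e-06), and Mrtfb, an actin-regulated coactivator (-1.07 ± 0.15, adjusted p = 2.81e-05). In the interaction 5 of these 8 passed, all higher, where 12.7% of all genes passed, 1623 higher and 758 lower. Of genes above the table median in at least 1 population, 20.5% passed. With cyclic loess the split of all genes was 862 and 1215, and that of these 8 was not followed.

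Among 16 genes of the MAP kinase cascade and its feedback inhibitors, Spry4, an inhibitor of receptor tyrosine kinase signalling, was lower in PDPN+BP3- than PDPN- cells of the lymph node (-2.70 ± 0.19, adjusted p = 1.35e-08) and of the thymus (-1.12 ± 0.19, adjusted p = 0.000241). In the thymus 4 of the 16 (25.0%) were called, all lower, a share near the 28.5% of all genes, and in the lymph node 4 were lower and 2 higher (37.5%, against 23.1% of all genes). All 16 were above the table median in every population. Of genes above it in at least 1 population, 44.6% were called in the thymus and 36.8% in the lymph node, the latter near the 37.5%. Of 10 genes of the integrated stress response, 3 were lower and 2 higher in PDPN+BP3- cells of the thymus, and 1 was lower and 2 higher in those of the lymph node, 50.0% and 30.0% against the same all-gene shares. Eif2ak3, the endoplasmic reticulum stress kinase PERK, was higher in both (1.26 ± 0.19, adjusted p = 7.27e-05, and 0.98 ± 0.19, adjusted p = 0.000908), and Ddit4, an inhibitor of mTORC1, was lower in the lymph node (-2.08 ± 0.26, adjusted p = 1.49e-05). Of 9 other leucine zipper factors, 5 were called between PDPN+BP3- cells of the tissues, 4 higher and 1 lower in the lymph node (55.6%, against 17.1% of all genes). The share was 26.8% among genes above the table median in at least 1 population. Maf, a large MAF factor, was higher in lymph node PDPN+BP3- than PDPN+BP3+ cells, with a PDPN+BP3+ minus PDPN+BP3- difference of -3.01 ± 0.20 (adjusted p = 9.15e-09).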

How the data were processed

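RNA of 5 sorted populations (n = 3 arrays each) was amplified (Ovation Pico WTA System V2) and hybridised to Affymetrix Mouse Gene 1.1 ST arrays, per the labels' protocols. The deposited values are log2 signals that the authors made with RMA in the Affymetrix Expression Console, per the submitters' processing notes, with versions not given in the sources used here. RMA corrects background and brings all arrays to one distribution before it summarises probes. Base 2 was inferred from the values, which run from 1.07 to 12.07. Of 24758 transcript clusters, 20844 were annotated with 1 symbol, 1735 with several and 2179 with none, and 18718 genes were tested with no filter on low values. No measure of background was used here, so low signals need not stand above background. A ceiling on high signals was not tested either, so narrow ranges there need not mean equal expression. The precision is limited by the number of arrays.

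All 15 arrays entered 1 limma fit with a mean for each population (limma 3.58.1, R 4.3.3; 10 residual and 5.5 prior degrees of freedom), and the procedure was tested on simulated data. Benjamini-Hochberg adjustment ran over all genes tested, separately per comparison, and the threshold was 0.05. The 6 pairwise comparisons, an interaction and an F test were each recomputed under 22 or 23 alternatives. The members and the other gene lists were chosen with earlier results of these data known, and comparisons that share arrays were not set against each other. All members are named. Genes of other lists named in the text are among the up to 3 per list and comparison with the smallest adjusted p whose arrays did not overlap, and the sort antigens could always be named. Promoter windows come from RefSeq tables (GRCm38.p6), which held 26 of the 33 members.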

Additional observations from a re-analysis of the deposited data

Results flagged for a closer look

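For 6 of the 33 members (18.2%) the gap separating PDPN+BP3- from PDPN- cells was not the same in both tissues by limma's interaction test, with p-values adjusted over all genes. The same test called 12.7% of all genes and 20.5% of those above the table median in at least 1 population, a share above that of the members. The interaction, lymph node minus thymus on the log2 scale, was 1.62 for Nr4a1 (adjusted p = 0.00306), 1.42 for Arc (adjusted p = 0.00485) and -1.10 for Klf4 (adjusted p = 0.000851). It was 0.73 for Myc (adjusted p = 0.00903), 0.90 for Gadd45b (adjusted p = 0.0313) and 0.80 for Egr2 (adjusted p = 0.0485). The calls of Gadd45b and Egr2 did not hold under every alternative, as given above. The arrays of the PDPN+BP3- and PDPN- cells did not overlap in either tissue for Klf4, Arc, Myc and Gadd45b, overlapped in the lymph node for Nr4a1 and overlapped in the thymus for Egr2.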

How the results depend on the processing

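Of 231 pairs of a member and a test, 111 passed the threshold, 76 of these under every alternative run, and 0 reversed. Of the 120 others, 32 passed under at least 1 alternative. When only the arrays of the populations compared were fitted, the thymus count of 17 was 11, and the cause was not tested beyond the smaller number of arrays. With quantile normalization the members' summary in the lymph node PDPN+BP3- cells (mean over its arrays of the median deviation) was 0.17 in place of 0.22. Leaving out 1 array at a time gave 11 to 19 members for thymus PDPN+BP3- against PDPN- cells, 10 to 14 for lymph node PDPN+BP3- against PDPN- cells, 21 to 24 for PDPN+BP3+ against PDPN- cells and 10 to 20 for PDPN+BP3+ against PDPN+BP3- cells. It gave 14 to 25 for lymph node against thymus PDPN+BP3- cells, 9 to 14 for PDPN- cells, 4 to 9 for the interaction and 29 to 31 for any difference. With arrays centred on their medians, the all-gene median of lymph node minus thymus PDPN+BP3- cells moved from 0.04 to -0.09 and the members' median from 0.55 to 0.43.

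Replicate numbers showed no clear pairing over all populations, and the labels do not say that they mark shared experiments. Deviations of same-numbered arrays of different populations correlated at -0.17 to 0.29, with 6 of 30 over 0.1. Of differently numbered arrays 9 of 60 were over 0.1. In the lymph node, same-numbered PDPN+BP3- arrays correlated at 0.29, -0.03 and 0.18 with PDPN- arrays and at 0.15, 0.07 and 0.06 with PDPN+BP3+ arrays. The PDPN+BP3+ arrays were at -0.02, 0.08 and -0.07 with PDPN- arrays, and the thymus pairs at -0.16, -0.17 and -0.14. A pairing within the lymph node was therefore not settled. With the replicate number as a block the counts, in the order above, were 16, 13, 23, 18, 24, 13, 7 and 30.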
